A study of Homo sapiens with 6 samples.

Results

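The thioredoxin, glutathione and NRF2 enzymes considered here are 10 genes: TXN, TXNRD1, TXNRD2, PRDX1 and SRXN1 of the thioredoxin system, GSR, GCLC and GCLM of glutathione metabolism, and the NRF2-induced enzymes NQO1 and HMOX1. Members are these 10 of 19775 measured genes, and every probe set that the array annotation assigns to exactly 1 of them was taken, which gave 20 of 54613 probe sets and at least 1 for each gene. The 6 arrays (Affymetrix HG-U133 Plus) come from 2 lines made from SKOV3.ip1, human ovarian cancer cells derived from SKOV3, with 3 arrays for each line. Both lines were stably transfected with a vector for PEA-15, a small protein that binds ERK and FADD. In the S116A line alanine stands in place of Ser116, so that it cannot be phosphorylated, and in the S116D line aspartic acid mimics phosphorylation. For S116D the labels disagree on the residue, since the sample characteristics name Ser104 beside Ser116 and the treatment text names Ser16. The labels name no drug or time course, the vector and its promoter are not described in the labels, and nothing says whether a line is 1 clone or a pool. No parental or empty-vector cells were analysed here, so each difference sets one line against the other: the log2 signal of S116D less that of S116A. Whether separate cultures lie behind the 3 arrays of a line is not stated, and the p-values reflect only array-to-array spread, possibly technical.

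Cells keep thiol groups reduced through a pair of parallel NADPH-driven systems. Thioredoxin reductase passes electrons to thioredoxin and from there to peroxiredoxins, which remove peroxides, while glutathione reductase recycles oxidised glutathione, a tripeptide whose first step of synthesis is made by glutamate-cysteine ligase. The transcription factor NRF2, held low by KEAP1 and released under oxidative or electrophilic stress, binds antioxidant response elements near many of these genes, and its activity has been studied in ovarian carcinoma in relation to drug resistance.

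The 6 arrays had median log2 signals between 7.86 and 7.89. The correlation of a pair of arrays over all probe sets was 0.995 to 0.998 within a line and 0.987 to 0.990 between the lines. The first principal component, with 61.9% of the variance, separated the lines. The second, with 20.3%, had S116A 1 and 2 with S116D 1 on one side and S116A 3 with S116D 2 and 3 on the other, a split that matches no label. Of 13 epithelial ovarian cancer markers, KRT8 and KRT18 gave high signals in both lines (at least 12.92 on every array). By brightest probe set, however, 6 of the 13 were lower in S116D at a limma adjusted p under 0.05 and none higher. Over all 19775 genes 12.2% differed by this test, 6.79% higher and 5.39% lower. The summed signal of the 13 was 15.35 to 15.64 on the log2 scale in S116D against 15.96 to 16.28 in S116A. On the brightest probe set of each gene, none of 8 leukocyte markers and none of 8 fibroblast markers differed at a limma adjusted p under 0.05. Of 6 endothelial markers KDR was lower there, at a dim signal, and a second, dim probe set of TEK was also lower (-0.25, adjusted p = 0.034). Summed signals of these lists overlapped between the lines, at 11.36 to 11.47 and 11.38 to 11.46 for leukocytes, 11.56 to 11.66 and 11.59 to 11.64 for fibroblasts, and 11.19 to 11.26 and 11.22 to 11.32 for endothelium (S116A first). The part of the epithelial difference in the results below was not tested, and in a bulk sample fewer cells of a kind and less RNA per cell cannot be told apart.

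Of the 20 probe sets, 5 differed between the lines, 2 higher in S116D (both for GSR) and 3 lower (1 for TXNRD1, 2 for GCLM), by limma with Benjamini-Hochberg adjustment over all 54613 probe sets and a threshold of 0.05. Over all probe sets 8.55% passed this test, 4.36% higher and 4.19% lower. The remaining 15 probe sets, among them all of TXN, TXNRD2, GCLC, SRXN1, NQO1, HMOX1 and PRDX1, differed by -0.38 to 0.35 with adjusted p from 0.070 to 0.95, and 5 of them had an unadjusted p under 0.05. The 3 arrays of one line lay wholly above or below those of the other for 9 of the 20, 3 higher and 6 lower in S116D, where 24.0% of all probe sets did so. The median difference over the 20 was 0.03, against 0.00 over all probe sets. Counting each gene once by its brightest probe set, GSR was higher and TXNRD1 lower, while 12.2% of all 19775 genes passed, 6.79% higher and 5.39% lower. The counts for these probe sets depended on single arrays: 1 was called without S116A 1 or without S116D 2, 3 without S116A 2 or without S116D 3, 4 without S116A 3 and 5 without S116D 1. Over all probe sets, 2775 were called without S116A 1, 2986 without S116A 2 and 4555 without S116A 3. Without S116D 1, S116D 2 or S116D 3 the counts were 4674, 2608 and 2772, against 4672 with all arrays. With the split along the second component as a block, 9 of the 20 were called, 3 higher and 6 lower. This block, an alternative added once the values were known, called 8099 of all 54613 probe sets. This split was drawn from the same arrays that are tested, so its p-values may be too small.

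**Figure D1:**
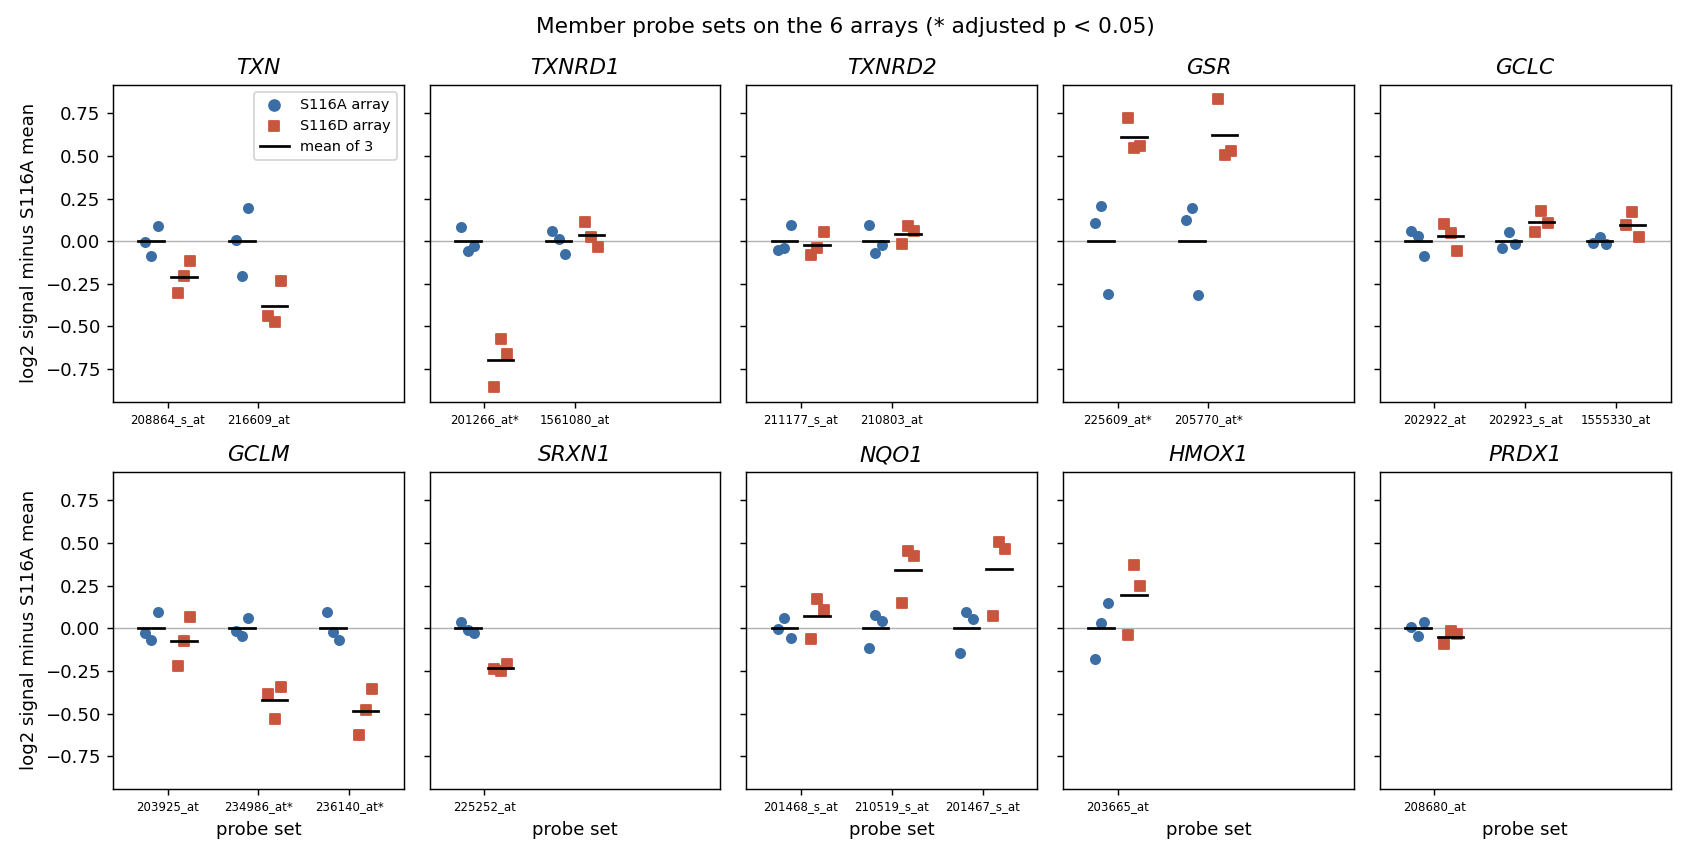
Each panel plots 1 gene, each position on the x axis 1 probe set, and the y axis the log2 signal of each array after subtracting the S116A mean of that probe set; circles are S116A arrays, squares S116D arrays, bars the mean of 3, and an asterisk marks an adjusted p under 0.05. GSR lies above 0 in all S116D arrays and TXNRD1 201266_at below, by 0.61 and 0.70 on average, while PRDX1 and TXNRD2 arrays of the lines overlap.

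The core letters of an antioxidant response element were searched for around the start sites of these genes. The search used TGACNNNGC and its reverse complement GCNNNGTCA in windows of 300 bases (250 before and 50 after each start) from RefSeq, build GRCh38.p14, and the 2 forms do not overlap each other in these windows. The table held 10 windows for 7 of the 10 genes (TXN, TXNRD1, TXNRD2, GCLC, GCLM, SRXN1 and NQO1), and 3 of the 10 held a match, 2 of TXNRD1 and 1 of GCLM. Of all 35116 windows 13.3% held one. A match is a run of letters and not a measured binding site, and windows without one say nothing of elements farther away. GSR, the gene called higher, had no window. TXN and SRXN1, whose S116D means were lower without passing the threshold, had no match. Whether a match goes with a direction was not tested. For the 3 windows with a match, the bases before each start are shown, 5′ to 3′ on the strand of the gene, with the matched letters in capitals: chr1:93909431-93909680, minus strand, for GCLM, and chr12:104215529-104215778 and chr12:104286782-104287031, plus strand, for 2 starts of TXNRD1.
GCLM: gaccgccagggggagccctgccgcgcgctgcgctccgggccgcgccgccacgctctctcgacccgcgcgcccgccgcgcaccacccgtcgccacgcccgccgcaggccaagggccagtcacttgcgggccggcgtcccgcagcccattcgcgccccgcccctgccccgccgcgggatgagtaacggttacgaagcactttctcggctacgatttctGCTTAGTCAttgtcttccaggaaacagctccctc
TXNRD1 first start: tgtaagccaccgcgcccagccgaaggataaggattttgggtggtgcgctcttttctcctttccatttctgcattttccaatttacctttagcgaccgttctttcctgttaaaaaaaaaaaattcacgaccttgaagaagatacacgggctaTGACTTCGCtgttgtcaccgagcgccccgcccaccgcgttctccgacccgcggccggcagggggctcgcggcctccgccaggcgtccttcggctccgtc
TXNRD1 second start: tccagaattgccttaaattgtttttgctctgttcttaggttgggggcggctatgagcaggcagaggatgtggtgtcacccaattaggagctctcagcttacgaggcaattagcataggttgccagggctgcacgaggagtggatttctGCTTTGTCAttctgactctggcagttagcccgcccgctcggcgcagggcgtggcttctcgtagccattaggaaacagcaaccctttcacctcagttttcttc
The matched letters begin 34 bases before the start in GCLM, 99 bases before the first start of TXNRD1 and 102 bases before its second. The first TXNRD1 window had another match that begins 8 bases before the start and runs past it, so it is not shown. Which of these starts the arrays read was not tested.

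TXNRD1, the cytosolic selenoprotein that reduces thioredoxin with NADPH, was the member with the smallest adjusted p. Its bright probe set, 201266_at, read 14.10, 13.96 and 13.99 in S116A and 13.16, 13.45 and 13.35 in S116D. All 3 S116D arrays were below all 3 S116A arrays, and S116D 1 was the lowest. The means were 14.02 ± 0.07 and 13.32 ± 0.15 (SD, n = 3 each), a difference of -0.70 ± 0.08 (SE, 95% interval -0.89 to -0.51), or 1.62-fold, with a limma adjusted p of 0.0017. It was called without any one array (adjusted p 0.0028 to 0.00995) and with every other setting except ordinary t statistics (0.064). The difference was -0.87 among the arrays on one side of the second component and -0.59 on the other. The other TXNRD1 probe set, 1561080_at, read 5.28 to 5.47 over all 6 arrays, below the lower quartile of all probe sets (6.65), and differed by 0.03 (95% interval -0.10 to 0.17).

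TXN, thioredoxin itself, was lower in S116D on both of its probe sets without passing the threshold. The brighter one, 208864_s_at, read 13.64, 13.55 and 13.73 in S116A and 13.33, 13.44 and 13.52 in S116D, which do not overlap. The difference was -0.21 ± 0.07 (SE, 95% interval -0.38 to -0.04) at a limma adjusted p of 0.15. The dimmer one, 216609_at, read 8.85, 8.64 and 9.04 against 8.40, 8.37 and 8.61. These arrays do not overlap either, and the difference was -0.38 ± 0.11 (SE) with an adjusted p of 0.086. With the second-component split as a block both had a limma adjusted p under 0.05 (0.0083 and 0.012). That split comes from these same arrays, so these values may be too small and do not count as calls. Within each array, the TXNRD1 signal fell relative to that of TXN by 0.49 from S116A to S116D, from 0.38 ± 0.10 to -0.11 ± 0.10 (SD, n = 3 each). An exact two-sided permutation test gave p = 0.1 for this contrast, the smallest that 3 arrays against 3 allow, and it was one of 10 such contrasts chosen after the values were seen. Of these, 9 had p = 0.1 by the exact permutation test (0.11 after Benjamini-Hochberg adjustment), so none passes a threshold of 0.05.

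None of the other thioredoxin members passed the threshold. SRXN1, sulfiredoxin, which restores overoxidised peroxiredoxins, read 12.17, 12.12 and 12.11 in S116A and 11.90, 11.88 and 11.92 in S116D. The lines were apart by more than the spread within either, at 12.13 ± 0.03 and 11.90 ± 0.02 (SD, n = 3 each), yet the difference of -0.23 ± 0.07 (SE) had a limma adjusted p of 0.070. It passed in 6 of 14 other settings, among them ordinary t statistics (0.041) and eBayes without an intensity trend (0.038). PRDX1, a peroxiredoxin that takes electrons from thioredoxin, read 14.57 to 14.65 in S116A and 14.52 to 14.60 in S116D, with a difference of -0.05 (95% interval -0.17 to 0.07). TXNRD2, the mitochondrial thioredoxin reductase, differed by -0.02 (95% interval -0.20 to 0.16) on 211177_s_at and by 0.04 (-0.12 to 0.21) on 210803_at, and its arrays overlapped on both. The fall of the cytosolic reductase on 201266_at therefore stood beside intervals for the mitochondrial one that lie within 0.21 of 0.

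**Figure D2:**
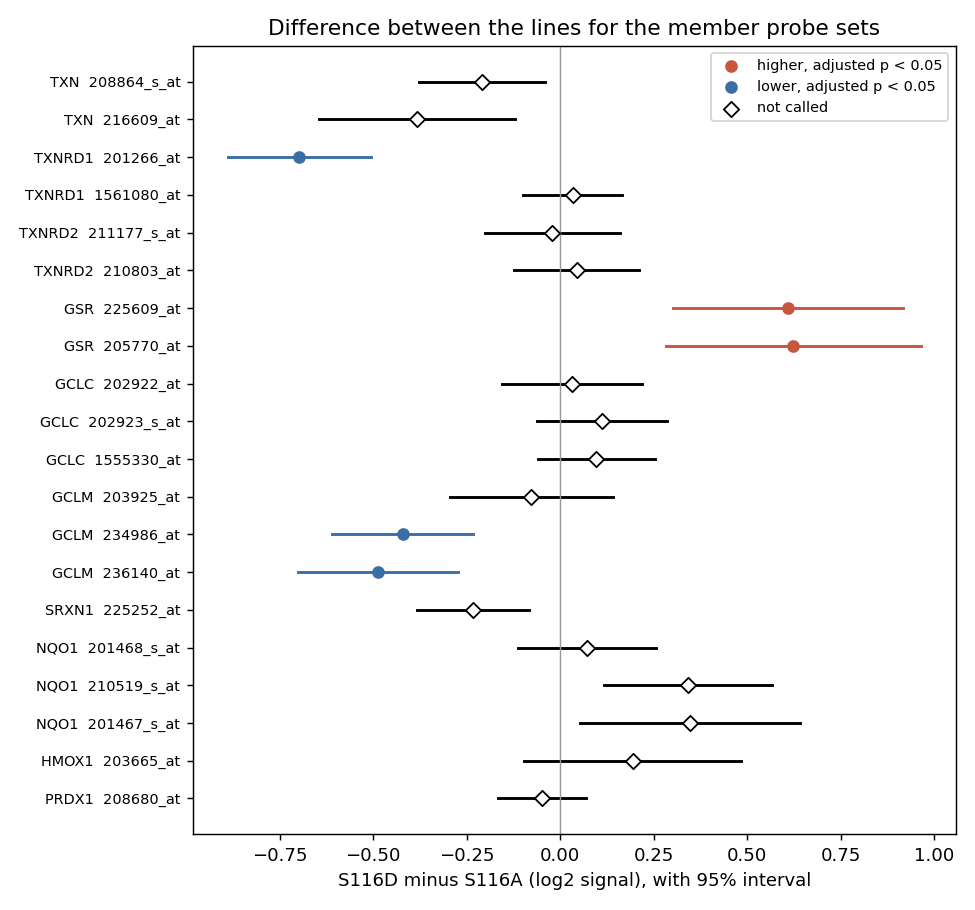
The difference between the lines in log2 signal (x axis) is plotted for each of the 20 probe sets (y axis) with limma's 95% interval; filled circles mark an adjusted p under 0.05 and open diamonds the others. The 2 GSR intervals lie wholly above 0, and those of TXNRD1 201266_at, GCLM 234986_at and GCLM 236140_at wholly below.

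GSR, glutathione reductase, moved in the direction opposite to TXNRD1. On 225609_at it read 10.63, 10.73 and 10.21 in S116A and 11.24, 11.07 and 11.08 in S116D. On 205770_at it read 9.88, 9.95 and 9.43 against 10.58, 10.26 and 10.28. On both probe sets S116A 3 was the lowest array, S116D 1 the highest, and the lines did not overlap. The differences were 0.61 ± 0.13 (SE, 95% interval 0.30 to 0.92) and 0.62 ± 0.15 (0.28 to 0.96), or 1.53-fold and 1.54-fold, with limma adjusted p of 0.027 and 0.037. The 2 probe sets read the same RNA and are not independent. These calls were close to the threshold: 225609_at was not called without S116A 1 (adjusted p = 0.060), S116D 1 (0.061), S116D 2 (0.078) or S116D 3 (0.075), and 205770_at was not called without any one of the 6 arrays (0.051 to 0.084). The direction was the same in all of these, at 0.45 to 0.72. Within the second-component split the brighter probe set differed by 0.57 and 0.87, and the dimmer by 0.67 and 0.84.

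The GSR and TXNRD1 signals were also compared within each array, which removes any shift of a whole array. The log2 GSR signal on 225609_at minus that of TXNRD1 on 201266_at was -3.47, -3.24 and -3.78 in S116A and -1.92, -2.37 and -2.27 in S116D. It rose by 1.31, from -3.49 ± 0.27 to -2.19 ± 0.24 (SD, n = 3 each), and by 1.32 with the other GSR probe set. GSR and TXNRD1 already lay apart in opposite directions on these probe sets, so the lines could not overlap for either contrast. The exact two-sided permutation test therefore had to give p = 0.1, the smallest it can give here, and is no further evidence. The contrast does not say how much either reductase changed.

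Glutamate-cysteine ligase is made of a catalytic subunit, GCLC, and a modifier subunit, GCLM. GCLM was lower in S116D on 2 of its 3 probe sets. On 236140_at it read 10.23, 10.11 and 10.06 in S116A and 9.51, 9.65 and 9.77 in S116D, a difference of -0.49 ± 0.09 (SE, 95% interval -0.70 to -0.27), with a limma adjusted p of 0.015. On 234986_at it read 10.16, 10.14 and 10.24 against 9.80, 9.65 and 9.84, a difference of -0.42 ± 0.08 (SE, 95% interval -0.61 to -0.23), with an adjusted p of 0.016. The lines did not overlap on either. The brightest probe set, 203925_at, read 11.04, 11.00 and 11.16 against 10.85, 10.99 and 11.13, where the lines overlapped and the difference was -0.08 (95% interval -0.29 to 0.14). The 3 probe sets thus disagreed in size. Relative to 203925_at within each array, 234986_at fell by 0.34 and 236140_at by 0.41, with no overlap between lines and the smallest exact permutation p of 0.1. Which transcript ends these probe sets read was not examined. The call for 236140_at was lost without S116A 1 (adjusted p = 0.066), S116A 2 (0.052) or S116D 2 (0.062), and that for 234986_at without S116A 1 (0.058) or S116D 2 (0.077).

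GCLC, the catalytic subunit, was not called on any of its 3 probe sets. Its differences were 0.03 on 202922_at (95% interval -0.16 to 0.22), 0.11 on 202923_s_at (-0.06 to 0.29) and 0.10 on 1555330_at (-0.06 to 0.25), with overlapping arrays throughout. Set against 236140_at of GCLM within each array, 202922_at of GCLC was higher by 0.58 ± 0.04 in S116A and by 1.10 ± 0.21 in S116D, as mean ± SD over 3 arrays, with no overlap and an exact permutation p of 0.1. Against 234986_at the change was 0.45, again with no overlap and an exact permutation p of 0.1. Against the brightest GCLM probe set, 203925_at, the lines overlapped, at -0.27, -0.26 and -0.54 in S116A and -0.03, -0.23 and -0.48 in S116D, with an exact permutation p of 0.4. Whether the subunits differed from each other between the lines therefore depended on the GCLM probe set.

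NQO1, a quinone reductase widely used as a readout of NRF2, gave no call on its 3 probe sets, although other settings called up to 2 of them. On 210519_s_at it read 12.24, 12.43 and 12.40 in S116A and 12.51, 12.81 and 12.78 in S116D. These arrays do not overlap, and the difference was 0.34 ± 0.10 (SE, 95% interval 0.12 to 0.57) with a limma adjusted p of 0.075. On 201467_s_at the difference was of the same size, 0.35 ± 0.13 (SE), but S116D 1 at 11.00 lay within the S116A range of 10.78 to 11.02, and the adjusted p was 0.16. On the brightest, 201468_s_at, the arrays overlapped and the difference was 0.07 (95% interval -0.11 to 0.26). S116D 1 was the lowest S116D array on all 3. Without it 210519_s_at and 201467_s_at were called, at 0.44 (adjusted p = 0.019) and 0.49 (0.022). With array weights both were called (0.019 and 0.040). With the second-component split as a block 210519_s_at was too (0.28, adjusted p = 0.029), but that split comes from these same arrays, so this p may be too small. On 201468_s_at the 2 sides of the second component differed in direction, at -0.09 and 0.20.

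HMOX1, heme oxygenase 1, which degrades heme and is induced through NRF2 and the loss of BACH1 repression, read 8.70, 8.91 and 9.03 in S116A and 8.84, 9.25 and 9.13 in S116D. Its arrays overlapped, and the difference of 0.19 (95% interval -0.10 to 0.48) had a limma adjusted p of 0.50. The interval does not exclude a rise of up to 0.48 or a fall of up to 0.10. Of the 10 genes, NQO1, HMOX1 and GSR thus had higher S116D means on every probe set, of which only those of GSR passed the test. GCLC had higher means on all 3 as well, and TXN, GCLM, SRXN1 and PRDX1 lower means on each of theirs.

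The 5 genes whose signal across the 6 arrays was most like that of TXNRD1 201266_at, by Pearson's r over 19775 genes, were ARIH1 (r = 0.997), SUCLA2 (0.996), MYO5B (0.995), SLAIN2 (0.994) and SH3D19 (0.994). This is a description over 6 arrays that fall into 2 lines, so any gene that separates the lines evenly scores high. Of these 5, SUCLA2 had the largest difference, -0.72, and SH3D19 the smallest, -0.20.

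Among the regulators of NRF2 the share called was near that of all genes. Of 11 measured regulators, each taken on its brightest probe set and adjusted over 19775 genes, MAFG alone was lower and none was higher, which is 9.09% against 12.2% of all genes. MAFG, a small MAF protein that pairs with NRF2 on DNA, read 10.67, 10.82 and 10.79 in S116A and 10.30, 10.39 and 10.25 in S116D, a difference of -0.45 ± 0.08 (SE, limma adjusted p = 0.010), and was not called without S116D 3. NFE2L2, which encodes NRF2, differed by -0.04 (95% interval -0.20 to 0.12, adjusted p = 0.81), KEAP1 by 0.04 (0.91) and BACH1, a repressor of the same elements, by -0.19 (0.29). CUL3, the ubiquitin ligase scaffold used by KEAP1, differed by -0.19 (0.23) on its brightest probe set, while 201370_s_at was lower by 0.31 (adjusted p = 0.047 over all probe sets). SQSTM1, which binds KEAP1, differed by 0.27 (0.23). NRF2 is regulated largely through the stability of the protein, which arrays do not read.

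Among the other genes of glutathione synthesis and use, 13 of 33 measured were higher in S116D, none was lower and 20 did not pass, with a median difference of 0.17 against 0.01 over all genes, of which 12.2% were called (6.79% higher). GLRX, glutaredoxin, which uses glutathione to reduce protein thiols, read 9.17, 8.88 and 8.97 in S116A and 10.42, 10.84 and 10.58 in S116D, a 3.05-fold rise (limma adjusted p = 1.5e-04) that was called on both of its probe sets. GPX1, the abundant glutathione peroxidase, read 11.34, 11.57 and 11.70 against 12.40, 12.45 and 12.58, a 1.91-fold rise (9.6e-04). The glutathione transferase genes MGST1 and GSTO2 rose 2.06-fold and 1.69-fold on their brightest probe sets, and the other GSTO2 probe set, 229155_at, differed by 0.19 (adjusted p = 0.26). GSTM3 rose 4.33-fold on 202554_s_at, from 8.84 to 10.95, but its other probe set, 235867_at, differed by -0.08 (95% interval -0.25 to 0.09), and members of the GSTM family can share probes. MGST1 rose on 3 of its 5 probe sets, most on 224918_x_at, by 2.63 from 7.45 (limma adjusted p = 2.0e-05 over all probe sets). Its unshared ones at 7.49 and 4.80 in S116A differed by 0.05 and 0.01. The list count was 7 without S116A 1 or without S116D 2, and 9 where the median over the probe sets of each gene was used. Over all genes these fits called 1447, 1451 and 2218, against 2407 in the main fit. This list, like the others, was chosen with earlier results of these data known, so its count beside that of all genes is a description only. The epithelial markers named above differed between the same lines, and their part in this count was not tested.

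**Figure D3:**
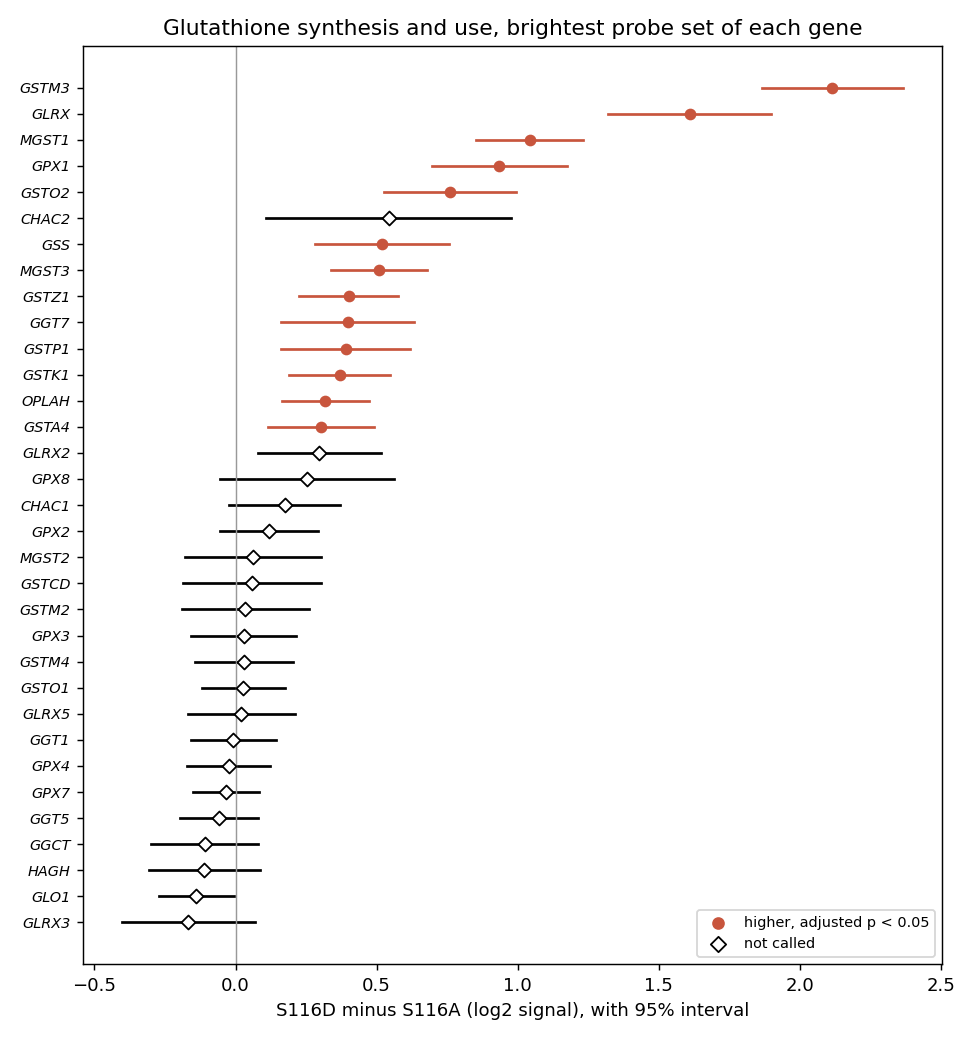
The difference between the lines in log2 signal (x axis) with limma's 95% interval is shown for each of the 33 measured genes of glutathione synthesis and use (y axis), on the brightest probe set of each gene; filled circles mark an adjusted p under 0.05. All 13 called genes lie above 0, from GSTA4 at 0.30 to GSTM3 at 2.12. GSTA4 and GGT7 passed only with adjustment over genes, and the GSTA4 call was lost without any one array.

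In the rest of the thioredoxin system 3 of 18 measured genes were higher and 1 lower, with 14 not called (median 0.03), where 12.2% of all genes were called, 6.79% higher and 5.39% lower. PRDX2, a cytosolic peroxiredoxin, rose 1.86-fold on its brightest probe set, from 11.73 to 11.83 in S116A to 12.65 to 12.68 in S116D (limma adjusted p = 1.1e-04). It was called on 2 of its 4 probe sets, and on 215067_x_at it differed by -0.10. SELENOW, a small selenoprotein, rose by 0.39 on its brightest probe set and was called on both. MSRB2, a methionine sulfoxide reductase, rose by 0.30 there but differed by -0.10 and -0.20 on its other probe sets. RRM2, the ribonucleotide reductase subunit, fell by 0.23. Both were called only with adjustment over genes, since over all probe sets the limma adjusted p was 0.053 and 0.068. The MSRB2 call was lost without any one of the 6 arrays, and that of RRM2 without each array except S116A 2.

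Genes that supply cysteine moved in both directions. Of 9, CTH, SLC3A2 and SLC1A5 were lower and SLC1A1 higher, with 5 not called, beside the 12.2% called of all genes. CTH, which makes cysteine from cystathionine, read 12.64 to 12.91 in S116A and 8.62 to 8.75 in S116D. SLC3A2, the heavy chain of the cystine transporter, read 13.12, 13.07 and 13.29 against 11.88, 12.26 and 12.34, a 2.01-fold fall (limma adjusted p = 0.0015). SLC7A11, its partner chain, named here outside the rule for named genes, differed by 0.21 on its brightest probe set (limma adjusted p = 0.67). Its arrays overlapped there, and 1 of its 3 probe sets was called. SLC1A1, a carrier of glutamate and cysteine, rose 1.78-fold on its brightest probe set. SLC1A5, a neutral amino acid carrier, fell by 0.52 (adjusted p = 0.045 over genes, 0.055 over all probe sets). Its call was lost without S116A 1, S116A 2, S116D 2 or S116D 3.

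Of 14 measured genes of NADPH supply, 2 were higher and none lower (median 0.05), a share of 14.3% that is near the 12.2% of all genes. Both act in mitochondria: IDH2, the NADP-dependent isocitrate dehydrogenase, rose 2.54-fold (limma adjusted p = 4.5e-04) and NNT, the transhydrogenase, 2.02-fold (5.4e-04), with calls on all probe sets of each. Among 32 other NRF2 target genes 4 rose and 2 fell (median 0.20), or 18.8% beside 12.2% of all genes. UGDH, which makes UDP-glucuronate, rose 1.62-fold, NQO2 by 0.44 on 1 of 2 probe sets, UGT1A6 4.03-fold, and SLC6A6, the taurine transporter, named after its values were seen to complete the count, by 0.72 on 1 of 5 probe sets, while TRIM16 fell 1.86-fold and ALDH3A1 by 0.42 from a dim 7.41. UGT1A genes share exons, so the UGT1A6 probe set may read others of that locus. SLC6A6 was not called without S116A 1 or S116D 2. In a list labelled other antioxidant enzymes, whose 11 measured genes are not all antioxidant, QSOX1, a sulfhydryl oxidase, fell 2.24-fold and none rose. That is 9.09% called beside 12.2% of all genes. SOD1 and PARK7 differed by 0.02 and 0.03.

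**Figure D4:**
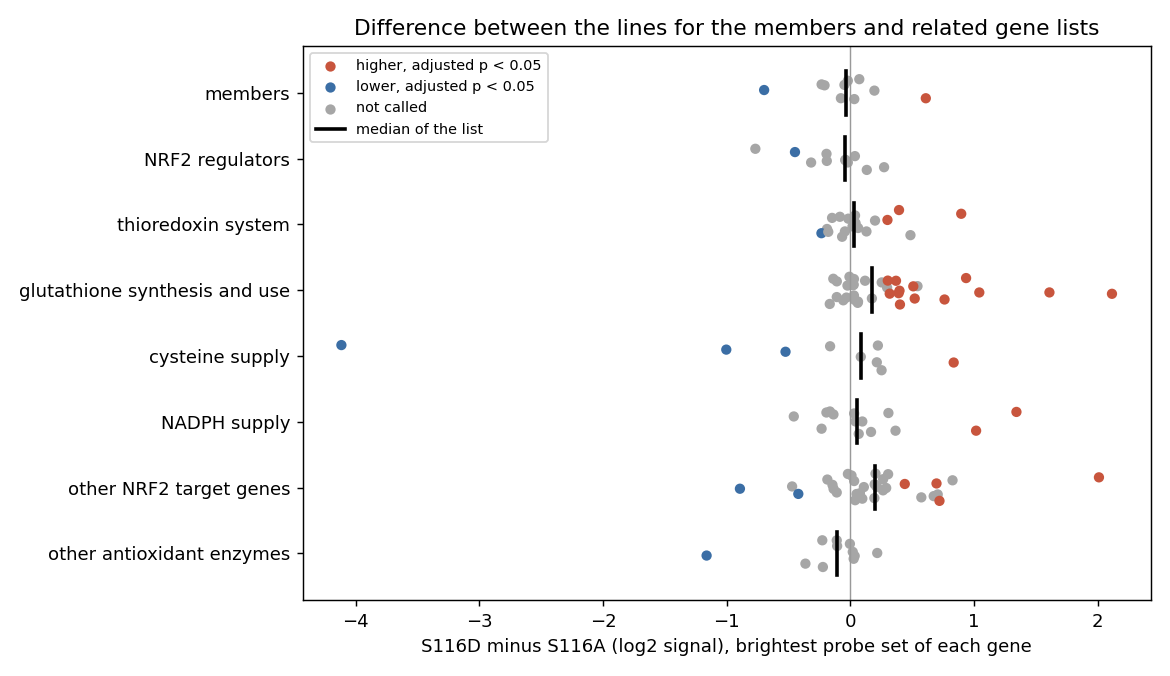
Each point is 1 gene on its brightest probe set, the x axis the difference between the lines in log2 signal and each row of the y axis a gene list; red and blue points passed the test upwards and downwards, and the black bar is the median of the list. Points for glutathione synthesis and use that passed lie only to the right of 0, while the cysteine supply list spans -4.12 to 0.84.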

How the data were processed

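Total RNA of 3 S116A and 3 S116D samples was hybridised to Affymetrix HG-U133 Plus arrays. The deposited table holds 1 log2 signal per probe set and array, a scale taken from the values (4.34 to 15.33). MAS5 and RMA are named in the submitters' processing notes, with no role or version for either. Depth has no meaning for arrays; 3 per line limit the precision.

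After 62 control probe sets were dropped, 54613 remained. GEO's platform annotation, updated through gene identifiers from RefSeq (GRCh38.p14), gave 1 gene for 41091, several for 1801 and none for 11721. The test was limma 3.58.1 (R 4.3.3) with lmFit and eBayes, an intensity trend and no covariates, with Benjamini-Hochberg adjustment over all probe sets or, with the brightest probe set per gene, over 19775 genes. The fit was also run on simulated data with known changes and independent normal noise. These lack the second-component split of the real arrays, so they do not give the rate of false calls here. Folds are antilogs of the log2 differences, and SE and 95% intervals are limma's.

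The members and lists were chosen with earlier results of these data known. Named list genes are up to 5 called per list with the smallest adjusted p, the 2 brightest others of lists with fewer than 2 calls, and NFE2L2, KEAP1, BACH1 and marker genes. Same-numbered arrays did not all deviate together from their line means (r = 0.45, -0.04 and 0.44), so replicate numbers were not taken as pairs. Other settings tried were the replicate block, array weights, ordinary t statistics, no intensity trend, only probe sets above the median signal, quantile or median scaling of arrays, each array left out, and other ways to choose the probe set of a gene.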

Additional observations from a re-analysis of the deposited data

How the results depend on the processing

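The 20 member probe sets gave 5 calls in the main comparison and 5 or 6 under quantile normalization, median centring, the filter on dim probe sets and eBayes without trend. Array weights gave 8, the second-component block 9 and ordinary t statistics 1 (SRXN1). With the replicate block, 10 member probe sets, 4 member genes, 53 pathway genes, 7340 probe sets and 3892 genes were called. In deviations from the line means, S116A 1 and S116A 3 correlated best with the S116D array of their own number (r = 0.45 and 0.44). S116A 2 correlated best with S116D 1 (r = 0.21), so whether the numbers mark pairs is not settled. The replicate block called NQO1 210519_s_at (adjusted p = 0.0076) and 201467_s_at (0.018), SRXN1 (0.044) and both TXN probe sets (0.046 and 0.013). The second-component block gave 4 member genes, 53 pathway genes, 8099 probe sets and 4411 genes. Ordinary t statistics gave 19 pathway genes, 7 glutathione genes, 1026 probe sets and 948 genes, and array weights 3681 genes. The main counts were 2 member genes, 31 of 126 pathway genes, 13 glutathione genes, 4672 probe sets and 2407 genes. Leaving out 1 array gave 1 to 5 member probe sets, 1 to 2 member genes, 21 to 35 pathway genes, 7 to 12 glutathione genes, 2608 to 4674 probe sets and 1447 to 2593 genes. The sign changed with other probe sets of a gene for GSTM3 (-0.079 with unshared probe sets preferred), NQO2 (-0.013), MSRB2 (-0.10, also on the median) and SELENOP (0.29 on the median, called). No called member probe set changed sign under any setting run. The cause of these changes was not tested, and without detection calls the dimmest probe sets cannot be told from background.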
